A study of Mus musculus with 9 samples.

Results

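The Cyp1 and Cyp2 cytochrome P450 enzymes other than the Cyp2b subfamily were followed in mouse liver through 50 array probes of 36 genes. A probe belonged to the set if its gene name on the array was of the Cyp1 or Cyp2 families but not Cyp2b, and if the scanner software called its spot well above background on 3 or more of the 9 arrays. The array held 55 such probe names for 37 genes, and 26478 of its 41174 probes passed the same signal rule. The 5 probes left out were a second probe of Cyp1b1 (2 arrays above background), a second probe of Cyp2g1, a pair of further Cyp2j13 probes and the single Cyp2w1 probe (0 arrays each).

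Total RNA was taken from livers of male C57bl/6J mice aged 16 weeks after 12 weeks on chow (chow), on a diet with 60 kcal percent fat (HFD, D12492 of Research Diets), or on the same high-fat diet with 40 g of APS, Astragalus polysaccharides by the series' title, per kg (HFD+APS). The study held 24 mice, and the 3 livers per group put on arrays were chosen by histology and triglyceride measurements, so they are not a random draw of each group. The authors hybridised 1 liver per 1-colour Agilent array. The question posed by the title is what the polysaccharides do in fatty liver.

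Cytochrome P450 enzymes are haem proteins of the endoplasmic reticulum that add oxygen to drugs, steroids and fatty acids, using electrons from Por, the P450 reductase. Cyp1a enzymes oxidise planar aromatic compounds and are induced through the aryl hydrocarbon receptor. Cyp2c and Cyp2j enzymes include epoxygenases of arachidonic acid, Cyp2a and Cyp2d enzymes hydroxylate steroids and drugs, and Cyp2e1 oxidises ethanol. Hepatocytes differ in their P450 content along the liver lobule: Cyp2e1, Cyp1a2 and Cyp2c29 are known from around the central vein and Cyp2f2 from around the portal vein.

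Levels below are log2 of the scanner's processed signal minus the 75th percentile of that array, and differences are log2 differences of group means ± SE. A probe was called where its 2-sided p from limma's moderated test, fitted to all 9 arrays and adjusted over 26478 probes after Benjamini and Hochberg, was under 0.05. Arrays have no read depth; the 3 arrays per group limit the precision, and no spot was saturated. Between 50.4% and 68.4% of an array's spots were well above background, and the 75th percentile of the signal lay between 209.7 and 264.7. All chow arrays lay on slide 1, all HFD arrays and HFD+APS 1 on slide 2, and HFD+APS 2 and 3 on slide 3, so diet and slide cannot be told apart in either comparison with chow. The hepatocyte marker list had 7 of 8 genes measured. Its summed level was 10.82 to 10.97 in chow, 10.52 to 10.85 in HFD and 10.55 to 10.89 in HFD+APS. In whole liver RNA, fewer cells of a type and less RNA per cell cannot be told apart.

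Many of these genes lie in clusters of close copies, which matters for what a probe reads. In mm9 coordinates, the probes of 11 Cyp2c genes lay on chromosome 19 between 39116674 and 44079594. The 7 Cyp2d genes lay on chromosome 15 (82201687 to 82620634), the 5 Cyp2j genes on chromosome 4 (95712305 to 96296075) and the 4 Cyp2a genes on chromosome 7 (27098659 to 27821605). Whether a probe lies in an exon's coding part or its UTR was not determined. The probe pairs below are shown because their sequences overlap with few differences; each is a 30-base window of the array's 60-base probes, and capitals mark the bases that differ.
Cyp2a4 probe 2 window: aggacacTTCgtagacttgcagaggatatt
Cyp2a5 probe window: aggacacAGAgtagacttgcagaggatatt
Cyp2j11 probe 1 window: atgggcagtttaagaagaAagaatcCtttc
Cyp2j13 probe window: atgggcagtttaagaagaGagaatcTtttc
Cyp2a4 probe 2 and the Cyp2a5 probe overlapped in 38 bases with 3 differences, and Cyp2j11 probe 1 and the Cyp2j13 probe in 30 bases with 2. A Cyp2c40 and a Cyp2c54 probe overlapped in 46 bases with 8 differences. Whether a probe also reads its neighbour was not tested, so which copy these values measure is uncertain.

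Promoters of 28 of the 36 genes were found in RefSeq's GRCm38.p6 table, 30 promoters in all, each from 250 bases before to 50 bases after the gene's start. They were searched on both strands for TATAAA (the TATA box), CAAAGTCC (a core of HNF4 sites), TTGCNNAA (C/EBP), GTTAAT (an HNF1 half-site), TGTTTAC (FOXA) and GCGTG (the core bound by the aryl hydrocarbon receptor). TATAAA was present in 63.3% of the member promoters and 13.6% of all 32851 promoters, and CAAAGTCC in 20% against 1.4%. TTGCNNAA was present in 16.7% against 10.8%, GTTAAT in 13.3% against 7.1%, TGTTTAC in 13.3% against 3.6% and GCGTG in 20% against 32.4%. These shares describe letters only, and paralogous promoters are copies of one another rather than independent. The promoters of Cyp2a4 and Cyp2a5 are printed because their probes moved together from liver to liver; those of Cyp2j6 and Cyp2j9 because these neighbours moved in opposite directions with diet; and that of Cyp2f2 because its probe fell. Capitals mark the motifs.
Cyp2a4, chr7:26306942-26307241, plus strand: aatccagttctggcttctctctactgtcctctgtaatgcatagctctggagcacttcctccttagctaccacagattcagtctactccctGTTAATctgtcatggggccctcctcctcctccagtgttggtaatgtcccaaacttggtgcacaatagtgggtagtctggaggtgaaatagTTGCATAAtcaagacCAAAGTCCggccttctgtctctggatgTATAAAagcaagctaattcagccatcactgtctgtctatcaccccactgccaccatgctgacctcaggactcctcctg
Cyp2a5, chr7:26835089-26835388, plus strand: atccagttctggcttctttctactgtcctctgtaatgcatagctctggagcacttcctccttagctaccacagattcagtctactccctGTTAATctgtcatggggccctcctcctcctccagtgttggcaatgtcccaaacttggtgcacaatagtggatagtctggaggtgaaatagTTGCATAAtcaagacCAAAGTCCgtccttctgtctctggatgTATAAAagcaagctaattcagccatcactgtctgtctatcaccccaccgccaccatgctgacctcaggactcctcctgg
Cyp2j6, chr4:96553602-96553901, minus strand: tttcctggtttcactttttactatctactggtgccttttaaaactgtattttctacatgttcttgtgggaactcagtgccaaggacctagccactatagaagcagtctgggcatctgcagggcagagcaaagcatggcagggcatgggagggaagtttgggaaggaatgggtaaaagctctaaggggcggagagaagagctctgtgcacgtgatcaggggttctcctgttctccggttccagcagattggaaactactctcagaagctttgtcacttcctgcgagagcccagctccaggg
Cyp2j9, chr4:96591436-96591735, minus strand: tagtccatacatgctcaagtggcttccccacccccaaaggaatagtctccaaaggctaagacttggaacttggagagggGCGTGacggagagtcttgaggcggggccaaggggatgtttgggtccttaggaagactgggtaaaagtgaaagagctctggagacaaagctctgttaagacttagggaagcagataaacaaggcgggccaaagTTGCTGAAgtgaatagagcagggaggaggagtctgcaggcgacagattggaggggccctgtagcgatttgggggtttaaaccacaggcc
Cyp2f2, chr7:27119705-27120004, plus strand: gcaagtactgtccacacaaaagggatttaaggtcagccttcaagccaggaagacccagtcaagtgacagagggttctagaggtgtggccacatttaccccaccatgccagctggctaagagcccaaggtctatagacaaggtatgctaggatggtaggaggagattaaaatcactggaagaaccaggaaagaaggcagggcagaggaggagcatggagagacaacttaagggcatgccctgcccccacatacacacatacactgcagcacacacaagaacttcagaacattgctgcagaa
The Cyp2a4 and Cyp2a5 promoters were identical at 294 of 299 aligned bases (98.3%) and both held the TATA, HNF4, C/EBP and HNF1 letters. The Cyp2j9 promoter held TTGCNNAA and GCGTG. None of the 6 motifs was found in the Cyp2j6 or Cyp2f2 windows, and no inference about any factor is drawn from this.

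Of the 50 members, 3 were lower and 1 was higher in HFD livers than in chow livers. Cyp2c44 (fold 2.17), Cyp2j9 (fold 2.55) and Cyp2f2 (fold 1.70) were lower, and Cyp2j6 was higher by its first probe (fold 1.86). In HFD+APS livers, 1 member was higher than in HFD, Cyp2c44, by a fold of 2.06, and 1 was lower than in chow, Cyp2j9, by a fold of 2.23. The 4 of 50 members called in HFD against chow compare with 9.97% of all probes (3.65% higher, 6.32% lower). The 1 of 50 called in HFD+APS against HFD compares with 1.22% (0.419% higher, 0.801% lower), and the 1 of 50 in HFD+APS against chow with 2.59% (0.623% higher, 1.96% lower). With normexp background correction and quantile normalization together, the calls over all probes in that last comparison split into 445 higher and 700 lower instead of 165 and 520. With slide as a fixed block, the calls over all probes in HFD+APS against HFD split into 155 higher and 97 lower instead of 111 and 212, and 80 probes were called in both fits. The members' share in HFD against chow was near that of the whole array, and which of the 2 was larger changed between the alternatives below. No difference is read from it, and a single called member gives no share to compare.

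The median log2 difference of the 50 members was -0.11 in HFD against chow (all probes -0.06), 0.04 in HFD+APS against HFD (all probes 0.02) and 0.05 in HFD+APS against chow (all probes -0.04). Groups did not overlap for 15 of 50 members in HFD against chow (37.9% of all probes), for 14 in HFD+APS against HFD (24.3%) and for 14 in HFD+APS against chow (30.1%). At an unadjusted p under 0.05, limma gave 15 of 50 members in HFD against chow (30%, all probes 30.8%), 17 in HFD+APS against HFD (34%, all probes 17.7%) and 9 in HFD+APS against chow (18%, all probes 23.8%). The second share lies above the array's, which was not tested. The comparisons share their HFD, HFD+APS or chow arrays and are not independent of one another.

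**Figure D1:**
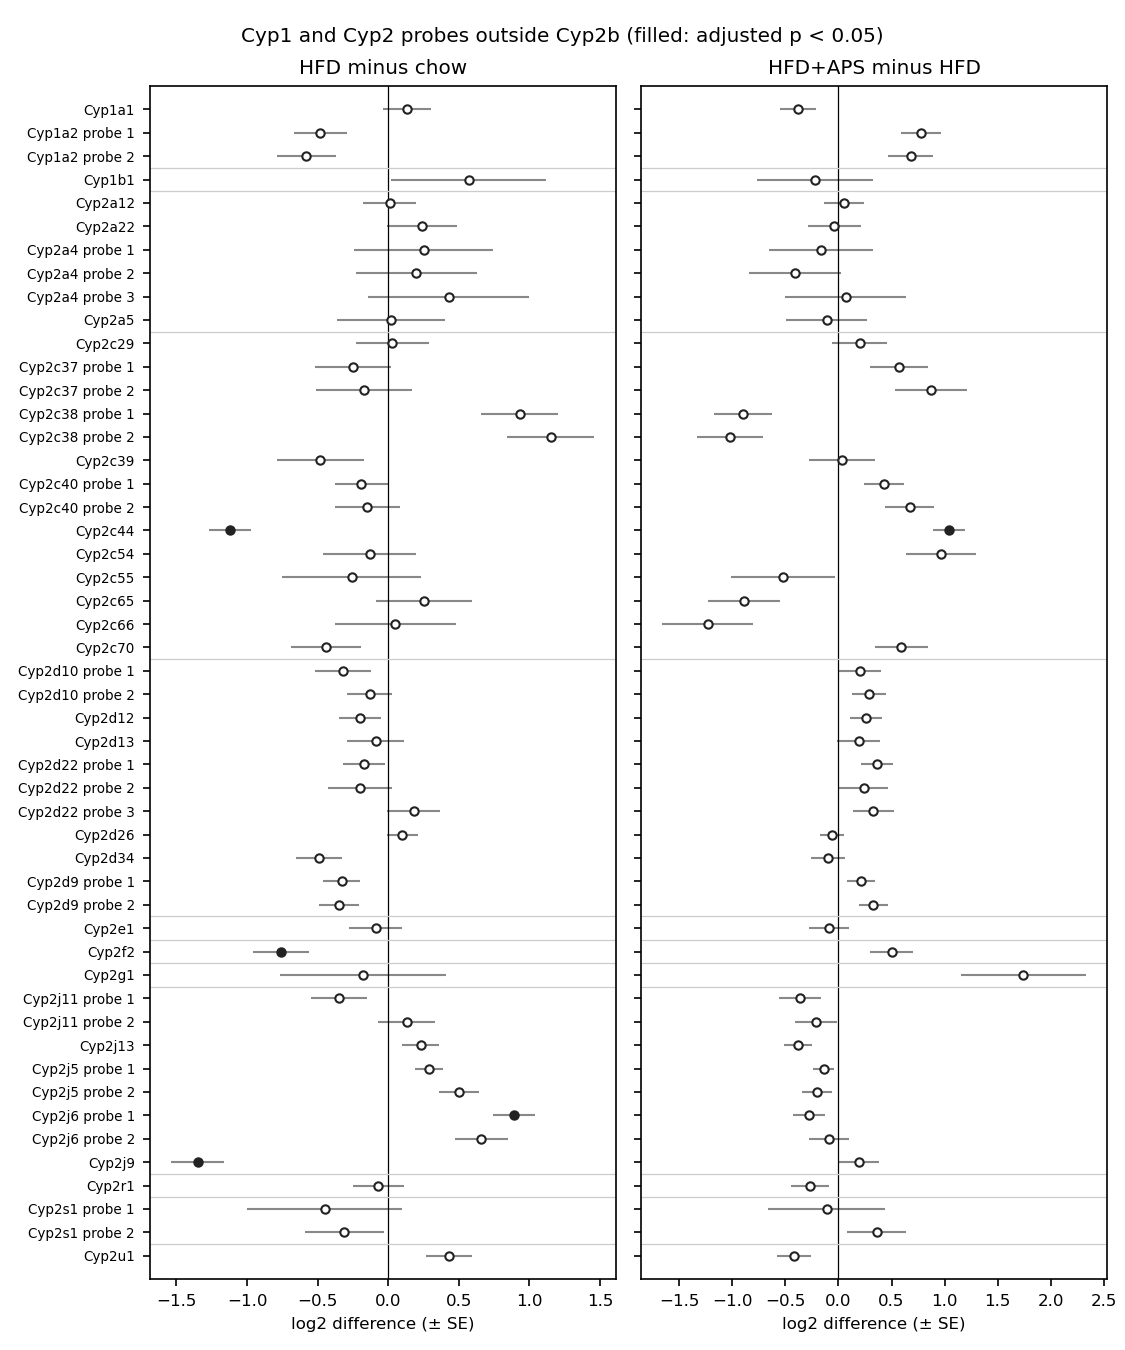
Log2 difference ± SE (horizontal axis) of each of the 50 probes, by subfamily, for HFD minus chow (left) and HFD+APS minus HFD (right), each from 3 arrays per group; filled points passed the threshold. Most points lie near 0, and the filled ones are Cyp2c44 (-1.12), Cyp2f2 (-0.76), Cyp2j6 probe 1 (0.89) and Cyp2j9 (-1.35) on the left and Cyp2c44 (1.04) on the right.

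Cyp2c44, an arachidonic acid epoxygenase that RefSeq now names Cyp2c23, was measured by 1 probe on chromosome 19 (44079535 to 44079594, mm9). Its level was 6.17, 6.41 and 6.22 in the chow livers, 5.04, 5.46 and 4.94 in the HFD livers, and 6.24, 6.09 and 6.24 in the HFD+APS livers. Every HFD liver lay below every liver of both other groups, and the chow and HFD+APS livers overlapped. The difference of HFD from chow was -1.12 ± 0.15 (limma adjusted p = 0.0088) and held the threshold in all 20 alternatives run. HFD+APS exceeded HFD by 1.04 ± 0.15 (limma adjusted p = 0.026). Against the HFD arrays on the same slide, the single HFD+APS 1 array was higher by 1.1, and the slide 3 arrays were higher than HFD by 1.02. This call was kept in 12 of 22 alternatives. It was lost with slide as a fixed block (adjusted p = 0.0816) and without the filter on dim probes (adjusted p = 0.0625). A replicate block (adjusted p = 0.0659) and a fit of only the 2 groups compared (adjusted p = 0.0868) also lost it. So did the fit within slide 2, where 1 HFD+APS array is left and the difference was 1.1. The call was lost too on dropping any 1 of 5 arrays: chow 3, HFD 1, HFD 3, HFD+APS 2 and HFD+APS 3. The largest adjusted p on dropping an array was 0.098. HFD+APS and chow differed by -0.08 ± 0.15 (limma adjusted p = 0.794).

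Cyp2j9 was read by a probe on chromosome 4 (96235281 to 96235340, mm9). It stood at 2.40, 2.32 and 1.99 in chow, 1.18, 0.87 and 0.61 in HFD, and 1.30, 1.07 and 0.86 in HFD+APS. All 6 livers on high-fat diet, with or without APS, lay below the chow livers and overlapped with each other. HFD differed from chow by -1.35 ± 0.19 (limma adjusted p = 0.00937), in all 20 alternatives, and HFD+APS from chow by -1.16 ± 0.19 (limma adjusted p = 0.0279). The second of these was kept in 12 of 20 alternatives. It was lost without the filter on dim probes (adjusted p = 0.0558) and with slide as a random block (adjusted p = 0.0563). It was also lost on dropping any 1 of 6 arrays: the 3 chow arrays, HFD 2, HFD+APS 2 and HFD+APS 3. The largest adjusted p on dropping an array was 0.117. HFD+APS was 0.19 ± 0.19 above HFD (limma adjusted p = 0.632).

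Cyp2j6, its neighbour in the Cyp2j cluster, moved the other way. Probe 1 (chromosome 4, 96192532 to 96192591, mm9) read 1.25, 0.78 and 0.92 in chow, 1.82, 1.93 and 1.89 in HFD, and 1.40, 1.78 and 1.61 in HFD+APS. The 3 groups did not overlap. HFD exceeded chow by 0.89 ± 0.15 (limma adjusted p = 0.0155), a call lost on dropping chow 2 or chow 3, with an adjusted p of at most 0.0566. Probe 2 (96183239 to 96183298) differed by 0.66 ± 0.19 in the same direction (limma adjusted p = 0.0632). HFD+APS differed from chow by 0.61 ± 0.15 at probe 1 (limma adjusted p = 0.0673).

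Cyp2f2, a P450 of portal hepatocytes and of airway club cells, was read on chromosome 7 (27918570 to 27918629, mm9). It stood at 8.30, 8.48 and 8.51 in chow, 7.84, 7.97 and 7.19 in HFD, and 8.28, 8.13 and 8.10 in HFD+APS. The 3 groups did not overlap, with HFD lowest, and HFD 3 was the lowest liver. The difference of HFD from chow was -0.76 ± 0.20 (limma adjusted p = 0.047). It kept the threshold in 6 of 20 alternatives and lost it without any 1 array other than HFD+APS 1 (adjusted p up to 0.13). Without HFD 3 the difference was -0.52. HFD+APS was 0.50 ± 0.20 above HFD (limma adjusted p = 0.234). Markers of non-hepatocyte cells also differed between HFD and chow: the stellate cell collagens Col1a1 and Col3a1 rose (2 of 6 markers; summed level 6.02 to 6.87 in chow and 6.79 to 7.04 in HFD), as did the endothelial Clec4g and Oit3 (2 of 5; 4.74 to 5.42 and 5.67 to 5.95). Of the Kupffer cell markers, 6 of 6 were measured and 0 called by limma (4 at an unadjusted p under 0.05), with 5 above 0, a median of 1.04 and a summed level of 5.08 to 5.61 in chow and 5.77 to 6.43 in HFD. The adipocyte list had 1 of 4 genes above background, Cfd, which gave 4.44 in HFD against chow and -5.12 in HFD+APS against HFD (limma adjusted p = 0.0816 and 0.126). Of the hepatocyte markers, 1 of 7 was called lower, Tat, and 1 of 7 lay above 0, with a median of -0.32. The median of their centred levels was 0.11 to 0.24 in chow, -0.26 to 0.05 in HFD and -0.02 to 0.02 in HFD+APS. The part of any of these cell markers in the members' values was not tested. Of the airway and lung markers, 2 of 4 were above background, with Sftpc and Sftpb not among them.

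**Figure D2:**
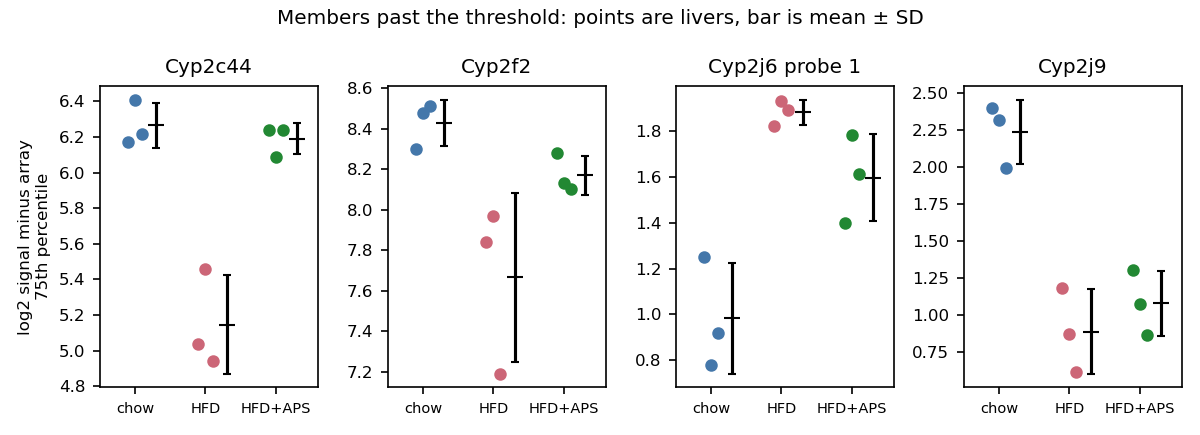
Level (log2 signal minus the array's 75th percentile) of the 4 called probes; points are livers, bars are means ± SD of 3 livers, and each panel has its own vertical scale that does not start at 0. HFD livers lie below chow for Cyp2c44 (5.15 ± 0.27 against 6.27 ± 0.13), Cyp2f2 and Cyp2j9 and above it for Cyp2j6, and HFD+APS livers overlap with chow livers for Cyp2c44 (6.19 ± 0.09) and not for the other 3 probes.

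In the rest of the Cyp2j subfamily no probe passed limma's threshold; of all 8 Cyp2j probes, 5 had an unadjusted p under 0.05 in HFD against chow, 1 in HFD+APS against HFD and 4 in HFD+APS against chow, where all probes gave 30.8%, 17.7% and 23.8%. Cyp2j5, an epoxygenase gene, read 5.66, 5.77 and 5.69 in chow and 5.99, 6.04 and 5.95 in HFD at probe 1, a difference of 0.29 ± 0.10 (limma adjusted p = 0.104). Probe 2 gave 0.50 ± 0.14 (limma adjusted p = 0.059). Neither probe's chow and HFD livers overlapped. Cyp2j13 differed by 0.23 ± 0.13, and the Cyp2j11 probes, near background (8 and 5 arrays above it), by -0.35 and 0.13. The median of the 8 Cyp2j probes was 0.26 in HFD against chow and -0.21 in HFD+APS against HFD, with 6 of 8 above 0 and then 7 of 8 below 0.

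Cyp2a genes, steroid and coumarin hydroxylases of which Cyp2a4 is known to be higher in females, differed widely among the HFD livers. Cyp2a5 read 7.44, 7.95 and 7.44 in chow, 8.10, 8.12 and 6.67 in HFD, and 7.16, 7.67 and 7.73 in HFD+APS. HFD 1 and 2 were the highest of the 9 livers and HFD 3 the lowest. Cyp2a4 probe 1 had the same order at its ends, with 8.25 and 8.27 in HFD 1 and 2 and 6.40 in HFD 3. None of the 6 Cyp2a probes passed the threshold in limma in any of the 3 comparisons, nor an unadjusted p of 0.05 (0 probes). Cyp2a12 and Cyp2a22 differed by 0.01 ± 0.19 and 0.24 ± 0.25 in HFD against chow. Over the 6 probes, the median in HFD against chow was 0.22 with HFD 3 and 0.66 without it. For HFD+APS against HFD the medians were -0.08 and -0.61.

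**Figure D3:**
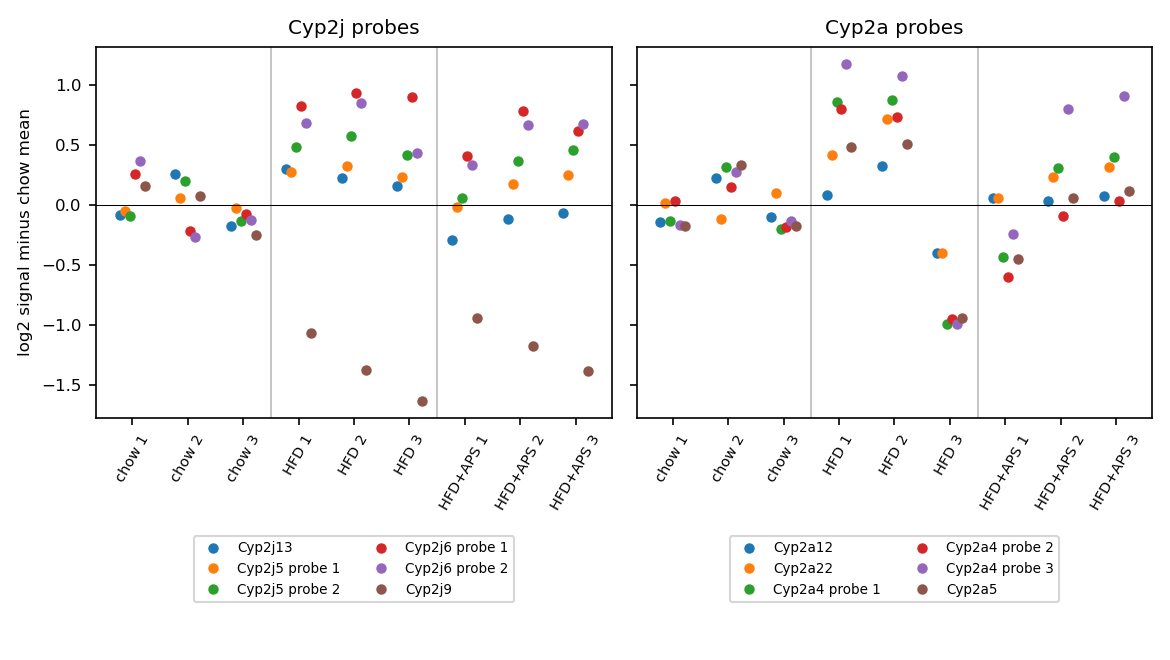
Level minus the chow mean (log2) in each liver for the 6 Cyp2j probes (left) and 6 Cyp2a probes (right) that were above background on all 9 arrays; vertical lines part the groups. Cyp2j9 lies below the other Cyp2j probes in every liver on high-fat diet, and the Cyp2a probes are high in HFD 1 and 2 and low in HFD 3.

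Of the 14 Cyp2c probes of 11 genes, Cyp2c44 alone was called. At an unadjusted p under 0.05, limma gave 3 in HFD against chow, 9 in HFD+APS against HFD and 2 in HFD+APS against chow. All probes gave 30.8%, 17.7% and 23.8%. The 9 of 14 lie above the array's share, which was not tested. They went in both directions: above 0 for Cyp2c44, Cyp2c54, Cyp2c70 and probe 2 of Cyp2c37 and of Cyp2c40. The 2 Cyp2c38 probes, Cyp2c65 and Cyp2c66 were below 0. In that comparison, whatever their p, 9 of 14 probes lay above 0 and 5 below. Cyp2c38 read -1.24, -0.51 and -1.04 in chow, 0.09, 0.34 and -0.44 in HFD, and -1.18, -0.53 and -0.99 in HFD+APS at probe 1. At this probe the HFD livers lay above all others. HFD differed from chow by 0.93 ± 0.27 and 1.15 ± 0.31 at the 2 probes (limma adjusted p = 0.0639 and 0.0522). HFD+APS differed from HFD by -0.90 and -1.02 (limma adjusted p = 0.149 and 0.151). Cyp2c54 and Cyp2c37, epoxygenase genes, were 0.97 ± 0.33 and, at probe 2, 0.87 ± 0.34 above HFD in HFD+APS (limma adjusted p = 0.191 and 0.238). Cyp2c39 differed by -0.48 ± 0.31 between HFD and chow, and Cyp2c40 by -0.19 and -0.15 at its 2 probes. Cyp2c29 differed by 0.03 ± 0.26 between HFD and chow, and Cyp2c70 by -0.44 ± 0.25. In HFD+APS against HFD, Cyp2c40 gave 0.43 and 0.67 and Cyp2c70 gave 0.59 (limma adjusted p = 0.293, 0.186 and 0.265). The subfamily's median was -0.16 in HFD against chow and 0.31 in HFD+APS against HFD, and 0.05 and 0.1 without HFD 3. Cyp2c55, Cyp2c65 and Cyp2c66 were above background on 6, 5 and 4 arrays. Each was well above background in all 3 chow livers, which alone were enough for the signal rule. In HFD and HFD+APS the numbers of such livers were 1 and 2 for Cyp2c55, 1 and 1 for Cyp2c65, and 1 and 0 for Cyp2c66. For Cyp2c66, HFD+APS differed from chow by -1.19 ± 0.43 (limma adjusted p = 0.147), at least 1.35-fold lower on the scale used here. Over the scalings tried, the difference ran from -1.19 to -0.17, so 1.35-fold is not a lower bound for all of them.

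The Cyp2d subfamily, with the male-predominant steroid hydroxylase Cyp2d9, had 11 probes and none called by limma; 3 probes had an unadjusted p under 0.05 in HFD against chow, and 2 in each comparison of HFD+APS, numbers near or under the shares of all probes (30.8%, then 17.7% against HFD and 23.8% against chow). Its median was -0.20 in HFD against chow, with 9 of 11 below 0, and 0.24 in HFD+APS against HFD, with 9 of 11 above 0; without HFD 3 these medians were -0.05 and 0.08. Cyp2d9 probe 1 read 8.67, 8.77 and 8.80 in chow and 8.55, 8.53 and 8.16 in HFD, without overlap (-0.33 ± 0.13, limma adjusted p = 0.118). Cyp2d34 was lower than chow in all 6 livers on high-fat diet, at 6.25, 6.32 and 6.15 in chow, 5.83, 5.93 and 5.48 in HFD, and 5.88, 5.42 and 5.63 in HFD+APS. Its differences from chow were -0.49 ± 0.16 and -0.59 ± 0.16 (limma adjusted p = 0.085 and 0.083). Cyp2d26 differed by 0.10 ± 0.11 in HFD against chow. The probes of Cyp2d10, Cyp2d12, Cyp2d13 and Cyp2d22 differed by -0.32 to 0.18.

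Among the Cyp1 genes, Cyp1a2, which metabolises caffeine and aromatic amines, gave -0.48 ± 0.19 and -0.58 ± 0.21 at its 2 probes in HFD against chow (limma adjusted p = 0.134 and 0.114), and -0.29 and -0.39 without HFD 3. Probe 1 read 3.54, 3.41 and 3.66 in chow, 3.16, 3.34 and 2.68 in HFD, and 3.69, 3.70 and 4.10 in HFD+APS, so HFD lay below both other groups. HFD+APS was 0.78 ± 0.19 above HFD at that probe (limma adjusted p = 0.0933), and the array on the same slide as HFD was above it by 0.63. Probe 2 gave 0.68 ± 0.21 in HFD+APS against HFD (limma adjusted p = 0.161), and its HFD and chow livers overlapped. Cyp1a1 differed by 0.13 ± 0.17 in HFD against chow and Cyp1b1, above background on 7 arrays, by 0.57 ± 0.55. In HFD+APS against HFD, Cyp1a1 went the other way from Cyp1a2, with -0.38 ± 0.17 (limma adjusted p = 0.288), and Cyp1b1 gave -0.22 ± 0.55.

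Cyp2e1, the ethanol-oxidising enzyme, read 8.0, 7.81 and 7.66 in chow, 8.0, 7.73 and 7.47 in HFD, and 7.96, 7.42 and 7.55 in HFD+APS. The 3 groups overlapped, and the differences were -0.09 ± 0.19 in HFD against chow (limma adjusted p = 0.779) and -0.09 ± 0.19 in HFD+APS against HFD (limma adjusted p = 0.846). Cyp2u1, a fatty acid hydroxylase gene, differed by 0.43 ± 0.16 and -0.42 ± 0.16 in these comparisons, and Cyp2r1, a vitamin D 25-hydroxylase, by -0.07 and -0.27. The 2 Cyp2s1 probes differed by -0.45 and -0.31 in HFD against chow. Cyp2g1 read -1.61 in HFD+APS 1 but 0.70 and 0.54 in HFD+APS 2 and 3, the 2 arrays of slide 3. Its difference from HFD was 0.25 for the array on slide 2 and 2.48 for those on slide 3, and slide and liver cannot be told apart there. The second Cyp2g1 probe was well above background on 0 arrays, so these values rest on 1 probe.

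The liver HFD 3 stood apart for these genes, though not for them alone. It was the lowest HFD liver in 43 of 50 members (86%), against 44.5% of all probes, and the lowest of all 9 livers in 27 members, against 19.3% of all probes. The median of its level minus the mean of HFD 1 and 2 was -0.45 over the members and -0.06 over all probes. The median of the members in HFD against chow was 0.05 without HFD 3 in place of -0.11, and in HFD+APS against HFD -0.09 in place of 0.04. These counts were made after the values had been seen. The acute phase list, 20 of 20 genes measured, was highest in the same liver: the median of its genes' centred levels was 1.97 in HFD 3 and -0.65 to 0.42 in the other 8, with a summed level of 11.55 to 12.47 in chow, 11.6 to 13.1 in HFD and 11.45 to 12.36 in HFD+APS. Of the neutrophil markers, S100a8 and S100a9 were measured and Ly6g, Ngp and Camp were not above background; their summed level was 5.6 in HFD 3, 0.35 to 2.63 in chow, 2.11 and 2.81 in the other HFD livers and 1.39 to 3.1 in HFD+APS. The periportal list and the hepatocyte markers, which hold no members, were also lowest in HFD 3 of all livers. The medians of their centred levels were -0.51 and -0.26 there, -0.22 and 0.05 in HFD 1, and -0.27 and -0.03 in HFD 2. The pericentral list was not lowest in HFD 3, at 0.09. The part of any of these lists in the members' values was not tested.

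**Figure D4:**
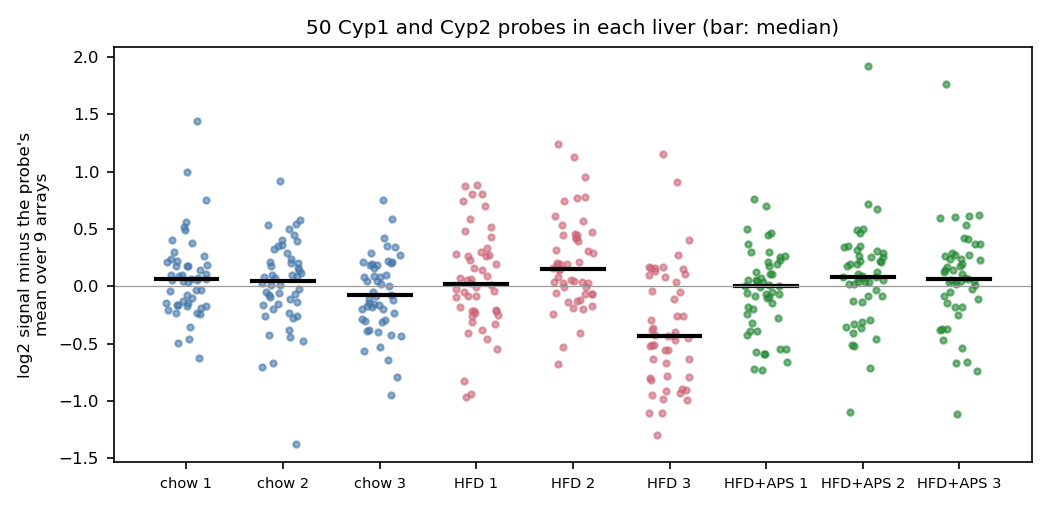
Level of each of the 50 probes minus its own mean over the 9 livers (log2), one column per liver, with the median as a bar. The medians run from -0.08 to 0.15 in 8 livers and stand at -0.43 in HFD 3.

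Genes that serve or control these enzymes were followed through gene lists, each gene by its brightest probe. Of 18 genes of electron transfer and haem, 1 rose in HFD against chow, the haem synthesis gene Uros (0.61 ± 0.13, limma adjusted p = 0.0291), and 1 fell, the haem-binding Pgrmc2 (-0.44 ± 0.10, limma adjusted p = 0.0353). Por differed by -0.16 ± 0.24 and Alas1, the first enzyme of haem synthesis, by 1.13 ± 0.57 (limma adjusted p = 0.688 and 0.214). Of the regulators, 28 of 30 were measured. Ahr, Nr1i3 (CAR) and Nr1i2 (PXR) differed by 0.25, 0.24 and 0.03, and none of these 3 was called.

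Lists for the 2 ends of the lobule were set beside the zoned members. In HFD against chow the portal Cyp2f2 fell, while the pericentral Cyp2e1 gave -0.09, Cyp2c29 0.03 and Cyp1a2 -0.48 and -0.58, none of them called. Of 16 pericentral genes, 5 rose and 0 fell, among them Lect2, Gulo, Rgn and Rhbg, with a list median of 0.39 (11 above 0; Cyp27a1 and Axin2 gave -0.59 and -0.65). Of 15 periportal genes measured of 16, 0 rose and 5 fell: Sdsl, Serpina1b, Gls2, Asl and Hal, with a list median of -0.30. The 2 above 0 were Ctsc (0.88) and Uroc1 (0.09), neither called. In HFD+APS against HFD, 3 periportal genes rose (Sdsl, Cps1 and Asl) and 1 pericentral gene fell (Rhbg). The periportal median was 0.56, with 12 of 15 above 0. The pericentral median was -0.07, with 7 of 16 above 0, among them Cyp27a1 at 0.84. The difference between the lists was not tested.

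The members' median of -0.11 in HFD against chow stands beside differences of larger size in the xenobiotic subfamilies Cyp2b and Cyp3a. The members' value pools subfamilies that went in opposite directions, with medians from -0.76 (Cyp2f) to 0.57 (Cyp1b), each of 1 probe. Of 7 Cyp2b probes, 5 rose, with a median difference of 4.23, and of 8 Cyp3a probes 4 fell, with a median of -1.29. In HFD+APS against HFD, 4 Cyp2b probes fell (median -2.22) and 2 Cyp3a probes rose (median 1.1). The difference between these subfamilies and the members was not tested.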

How the data were processed

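Total RNA of 9 livers was measured on 9 Agilent 1-colour (Cy3) arrays. Per the file headers, the authors ran Feature Extraction 10.7.1.1 (10.7 per the submitters' processing notes), which subtracted background within each array and gave a processed signal, the spot's intensity, with no scaling between arrays. The authors' deposited table holds log2 values (column medians 4.98 and 4.99, r of at least 0.9969 with the scanner values); the notes name limma without its role, and its normalization is not given in the sources used here. It served as an alternative.

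Here, 1639 control spots of 45018 and outlier spots were left out, spots of a probe were averaged on the log2 scale, and values were set relative to the 75th percentile of their array. Dye direction does not arise with 1 colour. Probes were fitted in limma 3.58.1 (R 4.3.3, version 1.17.8 of data.table; lmFit and eBayes, 6 residual and 2.34 prior degrees of freedom) with 1 mean per group and no block, and p-values were adjusted by Benjamini-Hochberg over 26478 probes. The fit was tested on simulated data. "At least" folds set dim values to the array's lowest signal called above background. Gene names are those of the array; of 41174 probes, RefSeq matches came by accession for 27668, by a further accession for 93, by symbol for 5531 and through a synonym for 460, with 7422 unmatched. Livers are separate samples by their labels, and beyond their choice by histology and triglyceride measurements nothing says more about them. The p-values measure the spread between these chosen samples, which need not be the spread between mice of a group. Replicate numbers were not taken as pairs: correlations of deviations between arrays of the same number had mixed signs (-0.17 to 0.15). Those between arrays of different numbers did too (-0.18 to 0.21). With 3 arrays per group, such values do not show a pairing and cannot exclude one. All members are given; the rule for naming genes covered 28 of the 36 member genes. The members and lists were chosen with earlier results of these data known. Alternatives were another scaling, normexp, the authors' values, other filters, the brightest probe per gene, only the groups compared, slide or replicate as a block, array weights and each array left out. Some genes of the lists are not reported here.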

Additional observations from a re-analysis of the deposited data

How the results depend on the processing

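Counts of called members moved by over 1.5 times under several alternatives. In HFD against chow (4 called) normexp with quantile normalization gave 8, probes above background on all 9 arrays 8 and array weights 10. In HFD+APS against HFD (1 called) there were 0 without the filter on dim probes, with slide as a fixed block, within slide 2, with a replicate block and with only the 2 groups compared, and 6 with array weights. In HFD+APS against chow (1 called) there were 0 without the filter and with slide as a random block, 2 with the all-array filter and 8 with array weights. The replicate block gave 5 and 1 members in the 2 comparisons with chow.

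Over all probes, HFD against chow (2641) gave 1008 without the filter, 963 with slide as a random block, 1742 with the replicate block and 4494 with array weights. HFD+APS against HFD (323) gave 73, 194, 97 and 1681 in the same order, 0 within slide 2 and 28 with only the 2 groups. HFD+APS against chow (685) gave 190, 193, 264 and 4525, with 1145 under normexp with quantile normalization, 1122 under the all-array filter and 335 with only the 2 groups. The causes of these shifts were not tested.

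Leaving out each array in turn gave 2 to 6, 0 to 3 and 0 to 5 members and 411 to 3683, 44 to 673 and 21 to 1801 probes in the 3 comparisons. The members' medians ran from -0.25 to 0.05, -0.09 to 0.21 and 0.01 to 0.09. Single members were followed under the alternatives for the 40 probes of the 28 genes covered by the naming rule, and not for the other 10 probes. Of their 114 results not called, 13 were called under some alternative, and 43 changed sign without being called. Probe signs were the same under 5 scalings for 48, 48 and 42 of 50 members. Signal near background limits 7 probes.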
